A study of Mus musculus with 118 samples.

Results

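Binding of the Polycomb system was examined at a set of genes of the pluripotency network of mouse embryonic stem cells (ESCs), namely Pou5f1, Nanog, Klf2, Klf4, Klf5, Esrrb, Tfcp2l1, Zfp42, Prdm14 and Sall4. They were taken by name and make up 10 of 26180 genes with a curated RefSeq transcript on GRCm38, the assembly behind mm10. Coding and non-coding transcripts both counted. The shares over all genes therefore include non-coding genes, whereas the 10 genes all have coding transcripts. Each gene was set against the RING1B, SUZ12 and PCGF2 peaks of calibrated ChIP-seq (cChIP-seq). In this method a fixed number of human HEK293T cells is mixed with the mouse cells as an internal standard. A promoter was any start site of the gene with 2500 bp on either side, and the gene body was the span of its curated transcripts. The samples and the lists carry no measure of transcription, so that these genes were active was not checked here.

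The lists come from untreated cells of an E14 background grown in serum with leukemia inhibitory factor (LIF). The PRC1CPM line always carries the inactivating changes Ring1aI50A/D53K, and tamoxifen switches its Ring1b(WT->I53A/D56K)fl/fl alleles to an inactive form through the Cre Rosa26::ERT2-Cre. The PRC1CKO line always lacks Ring1a (Ring1a-/-), and the same Cre removes RING1B from its Ring1bfl/fl alleles on tamoxifen. Both lines therefore depend on RING1B alone for PRC1 catalysis before treatment, and each is labelled with a single clone. Of the 118 samples in 42 groups, those behind the lists are 3 untreated PRC1CPM samples for each protein and 3 untreated PRC1CKO samples for SUZ12. The RING1B list also drew on PRC1CKO data that are not among these samples and were not analysed here. Each list holds only the start and end of 18643 RING1B, 7438 SUZ12 or 3680 PCGF2 peaks, pooled over replicates, so no height, depth or spread between replicates stands behind a peak. A gene without a peak is one where none was listed, which does not show that the protein was absent. The cultures were sampled in bulk, so binding in all cells and binding in a fraction of them cannot be told apart.

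PRC1 ubiquitylates histone H2A and PRC2 methylates histone H3, and together they hold developmental genes silent in ESCs. RING1B forms the catalytic core of PRC1 with a PCGF protein, and SUZ12 is a core subunit of PRC2. PCGF2 belongs to canonical PRC1, which reads the mark made by PRC2, although variant PRC1 can use PCGF2 as well. Variant PRC1 with RYBP or YAF2 does not bind that mark. Its PCGF1 form is drawn to CpG-rich DNA through KDM2B, and its PCGF6 form holds the DNA-binding factors MAX and MGA. The genes described here belong to the pluripotency network. Pou5f1 (encoding OCT4) and Nanog are core factors of the pluripotent state. Klf2, Klf4, Klf5, Esrrb and Tfcp2l1 encode factors that sustain self-renewal, Zfp42 (REX1) is a classical marker of naive cells, Prdm14 encodes a factor that opposes FGF signalling and DNA methylation, and Sall4 encodes a zinc finger partner of OCT4.

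The sequence just before the start site shows how different these promoters are, and 5 are printed here because they span the range from a CpG-dense promoter with all 3 proteins to promoters with none. Each is the 250 bases before a start site, 5′ to 3′ on the strand of the gene, from RefSeq on GRCm38.p6, with CpG dinucleotides in capitals. Of the 10 genes, 7 had entries in the RefSeq promoter table used here. Klf5, Prdm14 and Sall4 did not.
Klf4, minus strand, chr4:55532476-55532725: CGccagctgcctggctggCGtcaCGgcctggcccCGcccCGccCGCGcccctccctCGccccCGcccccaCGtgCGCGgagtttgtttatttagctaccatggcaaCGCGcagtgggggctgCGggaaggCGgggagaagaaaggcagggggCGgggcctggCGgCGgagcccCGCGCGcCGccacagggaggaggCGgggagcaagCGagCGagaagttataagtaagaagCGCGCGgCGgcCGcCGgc
Esrrb, plus strand, downstream start site, chr12:86421394-86421643: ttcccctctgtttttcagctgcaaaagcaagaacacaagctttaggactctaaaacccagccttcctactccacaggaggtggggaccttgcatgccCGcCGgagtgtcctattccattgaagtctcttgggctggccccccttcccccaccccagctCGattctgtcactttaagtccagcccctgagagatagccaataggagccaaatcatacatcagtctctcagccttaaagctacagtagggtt
Pou5f1, plus strand, chr17:35505782-35506031: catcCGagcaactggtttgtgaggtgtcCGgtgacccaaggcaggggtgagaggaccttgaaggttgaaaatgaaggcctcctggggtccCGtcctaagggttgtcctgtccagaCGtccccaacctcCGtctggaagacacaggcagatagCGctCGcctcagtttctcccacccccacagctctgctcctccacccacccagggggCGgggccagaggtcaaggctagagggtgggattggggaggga
Zfp42, minus strand, chr8:43307010-43307259: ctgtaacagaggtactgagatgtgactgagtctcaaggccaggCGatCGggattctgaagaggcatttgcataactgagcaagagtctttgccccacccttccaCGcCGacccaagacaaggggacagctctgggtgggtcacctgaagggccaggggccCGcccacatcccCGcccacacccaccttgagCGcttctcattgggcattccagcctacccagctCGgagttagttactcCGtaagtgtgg
Nanog, plus strand, chr6:122707239-122707488: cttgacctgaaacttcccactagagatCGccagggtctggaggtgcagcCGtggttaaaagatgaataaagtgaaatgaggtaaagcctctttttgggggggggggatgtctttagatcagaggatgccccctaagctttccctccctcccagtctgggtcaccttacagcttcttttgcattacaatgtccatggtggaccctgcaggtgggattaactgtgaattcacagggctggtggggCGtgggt

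The Klf4 window held 32 CpG dinucleotides and those of Zfp42, Pou5f1, Nanog and Esrrb held 9, 8, 3 and 3. The median over 32851 windows of the same length in the RefSeq table was 6, with an interquartile range of 2 to 16. A few short motifs were searched on both strands of these windows. The E-box CACGTG, which MAX-type factors bind, was in 6.02% of all windows and in that of Klf4. The GC box GGGCGG was in 32.7% of all windows and in those of Klf4, Zfp42 and Pou5f1, with 4, 2 and 1 matches. The KLF-type motif GGGNGTG was in 26.1% of all windows and in those of Nanog, Zfp42 and Pou5f1, with 1 match each. The windows of Nanog and Pou5f1 are those of their upstream start sites. At the downstream Nanog start site (122707565), the window held 2 CpG dinucleotides and 2 KLF-type matches. Among the other windows not printed, that of Klf2 held 29 CpG dinucleotides and 2 GC boxes. That of Tfcp2l1 held 16 CpG dinucleotides and 2 KLF-type matches. The window of the upstream Esrrb start site held 6 CpG dinucleotides and 1 KLF-type match. That of the downstream Pou5f1 start site held 6 CpG dinucleotides and no motif match. The octamer ATTTGCAT, which OCT4 binds, was in 1.60% of all windows and in that of Zfp42. Among the 10 windows of the 7 genes, matches to the GC box and the KLF-type motif overlapped in 1 window, and no other pair of motifs overlapped. These matches describe letters in a window and were not tested for binding.

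RING1B was listed at a promoter of 8 of the 10 genes, against 53.2% of all annotated genes. The genes without it were Nanog and Zfp42. SUZ12 was listed at the promoters of 4 genes, namely Klf2, Klf4, Esrrb and Prdm14, against 24.8% of all genes. PCGF2 was listed at 3, namely Klf4, Esrrb and Prdm14, against 13.5% of all genes. The SUZ12 and PCGF2 peaks lay only at promoters that also had RING1B, so the genes fell into classes by the proteins listed. Klf4, Esrrb and Prdm14 had all 3 proteins, a class that holds 13.4% of all genes. Klf2 had RING1B and SUZ12 without PCGF2 (11.1%), and Pou5f1, Klf5, Tfcp2l1 and Sall4 had RING1B only (28.6%). Nanog and Zfp42 had none (46.5%). RING1B with PCGF2 but no SUZ12 (0.0535% of all genes) and SUZ12 or PCGF2 without RING1B (0.294%) were found at 0 of the 10 genes. Among genes with RING1B at a promoter, 46.0% also had SUZ12, and 4 of the 8 genes here did. With 10 genes chosen by name, these counts are descriptions of the genes and were not tested against the background.

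**Figure D1:**
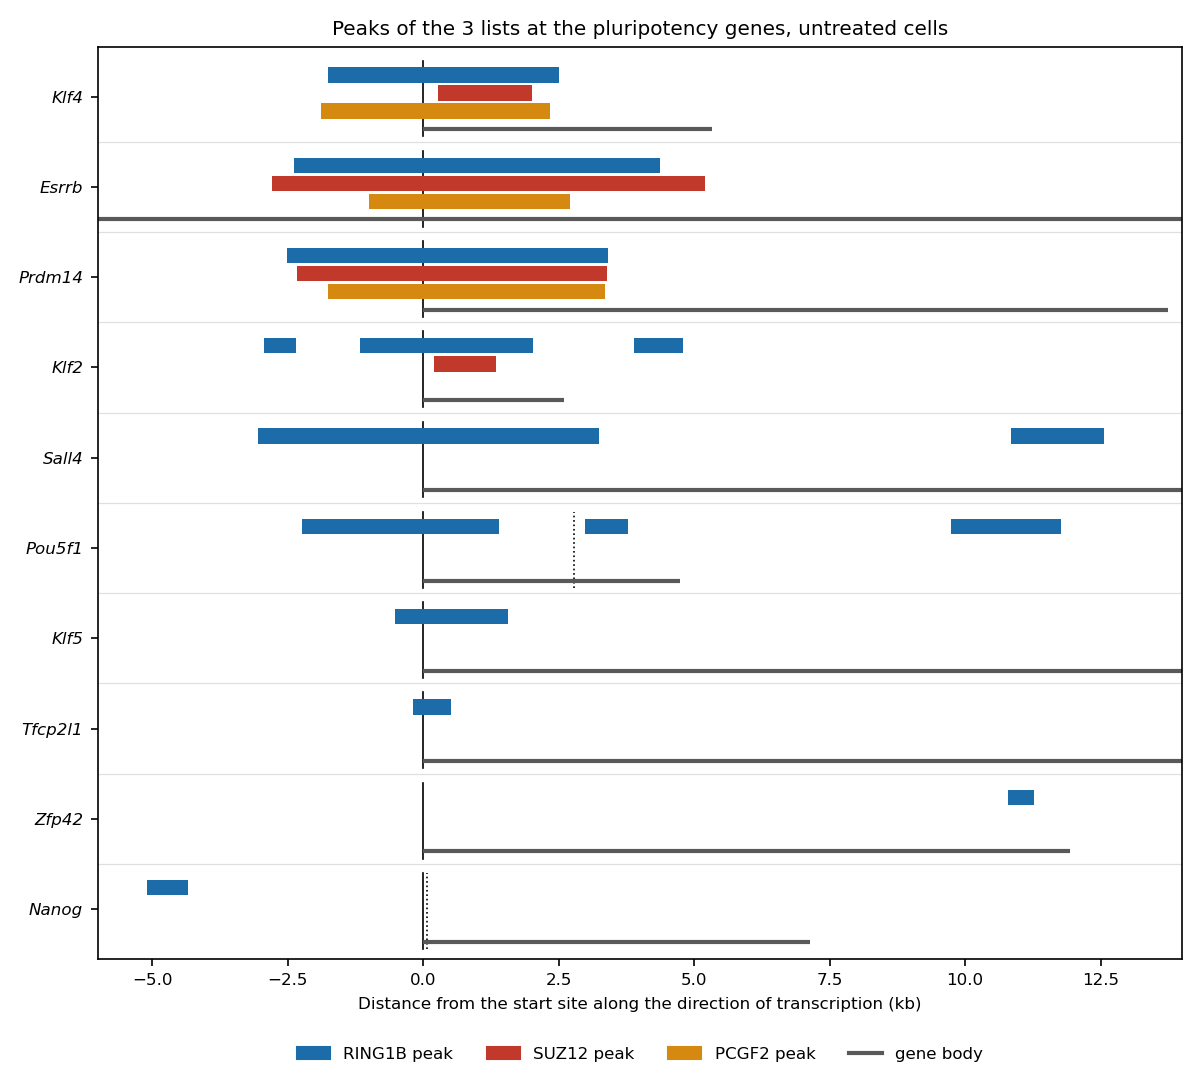
Map of the peaks of the RING1B, SUZ12 and PCGF2 lists around each gene, in kb from a start site in the direction of transcription, with the gene body in grey, the start site as a solid line and a further curated start site as a dotted line (Esrrb is drawn from its downstream start site). RING1B covers the start site of 8 genes, the SUZ12 peaks of Klf2 and Klf4 begin 209 and 282 bp downstream of it, and Zfp42 and Nanog have RING1B peaks only away from it.

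At Prdm14 the 3 proteins shared nearly the same downstream edge. The gene lies on the minus strand of chromosome 1 from 13113428 to 13127163. The peaks were 5919 bp for RING1B (13123750 to 13129668), 5729 bp for SUZ12 (13123770 to 13129498) and 5112 bp for PCGF2 (13123812 to 13128923). All 3 peaks contained the start site and had their midpoints in the first intron. Their downstream edges lay within the gene at 3413, 3393 and 3351 bp from the start site, whereas the upstream edges spread from -2505 to -1760 bp. SUZ12 covered 96.8% of the RING1B peak and PCGF2 covered 86.4%. Each peak took in 882 bp of coding sequence.

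At Esrrb the peaks marked one of its start sites and not the other. The gene lies on the plus strand of chromosome 12 from 86361117 to 86521628, and its curated start sites are at 86361117 and 86421644. The peaks were 6752 bp for RING1B (86419271 to 86426022), 7972 bp for SUZ12 (86418865 to 86426836) and 3715 bp for PCGF2 (86420639 to 86424353). All 3 contained the downstream start site, and the nearest RING1B peak to the upstream one was 41253 bp away. Here SUZ12 was the broadest and reached past RING1B by 406 bp upstream and 814 bp downstream, while the whole PCGF2 peak lay within that of RING1B. The promoter calls for Esrrb thus rest on the downstream start site and are lost if only that of its longest transcript is used. Within 500 bp of the downstream start site CpG observed/expected was 0.661, with 55 CpG dinucleotides, against 0.283 and 23 at the upstream one. As the printed window shows, few of these lay in the 250 bases just before the start site.

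Esrrb also carried further RING1B peaks inside its body of 160512 bp. One of 1991 bp from 86402370 to 86404360 lay in the first intron of the longer transcript, -19274 to -17284 bp from the downstream start site. The midpoint of another, of 1480 bp (86469792 to 86471271), was in exon 2, and it took in 410 bp of coding sequence. Neither overlapped SUZ12 or PCGF2. Of 2432 genes of 100 kb or more, 10.1% had 3 or more RING1B peaks in the body, as Esrrb did.

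Klf4 and Klf2 differed from these genes in where SUZ12 lay. Klf4 is on the minus strand of chromosome 4 from 55527137 to 55532475. The RING1B peak was 4276 bp (55529962 to 55534237) and the PCGF2 peak 4230 bp (55530138 to 55534367), so that PCGF2 spanned 95.9% of the RING1B peak, a share higher than at 98.1% of the 3034 RING1B promoter peaks that overlap PCGF2. Their median share was 63.2%. SUZ12 covered only 1727 bp from 55530467 to 55532193, from 282 to 2008 bp downstream of the start site, with 643 bp in coding sequence. It spanned 40.4% of the RING1B peak, against a median of 93.4% and an interquartile range of 68.8% to 100% over 5559 RING1B promoter peaks that overlap SUZ12. The lists were called by different rules, and the part of these rules in the difference between the SUZ12 and PCGF2 extents was not tested.

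Klf2 showed the same placement of SUZ12 without PCGF2. The gene is on the plus strand of chromosome 8 from 72319062 to 72321654. RING1B covered 3198 bp from 72317897 to 72321094 and contained the start site. SUZ12 covered 1129 bp from 72319271 to 72320399, from 209 to 1337 bp downstream, with 817 bp in coding sequence and its midpoint in exon 2. It spanned 35.3% of the RING1B peak, a lower share than at all but 6.58% of RING1B promoter peaks with SUZ12. A further RING1B peak of 575 bp from 72316135 to 72316709 counted as at the promoter, since its near edge lay -2353 bp from the start site, just inside the limit of 2500 bp. The next peak downstream, of 908 bp, began 3885 bp from the start site and lay outside it and beyond the gene. The nearest PCGF2 peak to the Klf2 start site was 624887 bp away. When a peak had to contain the start site, the number of genes with SUZ12 fell to 2, Esrrb and Prdm14, because the SUZ12 peaks of Klf2 and Klf4 lay inside the transcribed part.

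The genes with RING1B only ranged from one of the widest such sites to a narrow one. At Sall4, on the minus strand of chromosome 2 from 168748332 to 168767201, RING1B covered 6275 bp from 168763964 to 168770238 and contained the start sites of Sall4 and of Gm14261, a neighbouring gene. Of the 7498 genes with RING1B only, 54 (0.720%) had a promoter peak at least as wide. The nearest SUZ12 peak was 23635 bp downstream. At Pou5f1, on the plus strand of chromosome 17 from 35506032 to 35510777, RING1B covered 3631 bp from 35503803 to 35507433. It ran from -2229 to 1401 bp around the upstream start site, so that most of it lay before the gene, where the enhancers of Pou5f1 are known to lie. Of the genes with RING1B only, 3.71% had a peak at least as wide. A second Pou5f1 peak of 797 bp from 35509021 to 35509817 lay within the gene with its midpoint in exon 3, 214 bp beyond an internal start site at 35508807.

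Klf5 and Tfcp2l1 had a single peak each at the promoter and none farther into the gene. At Klf5, on the plus strand of chromosome 14 from 99298691 to 99313412, RING1B covered 2089 bp from 99298171 to 99300259 with its midpoint in exon 1. At Tfcp2l1, on the plus strand of chromosome 1 from 118627945 to 118685168, it covered 702 bp from 118627767 to 118628468, from -178 to 523 bp around the start site. Of the genes with RING1B only, 17.1% had a peak at least as wide as that of Klf5 and 82.8% as that of Tfcp2l1. The nearest SUZ12 peaks were 1126311 bp from the Klf5 start site and 422982 bp from that of Tfcp2l1.

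Nanog and Zfp42 had RING1B away from the promoter. Nanog is on the plus strand of chromosome 6 from 122707489 to 122714633, and its gene body held 0 peaks of any list. The nearest RING1B peak was one of 755 bp from 122702393 to 122703147, -5096 to -4342 bp from the upstream start site and so outside the limit of 2500 bp. It entered the count when the limit was widened to 5000 bp, which took the number of genes with RING1B to 9. Zfp42 is on the minus strand of chromosome 8 from 43295067 to 43307009. Its only peak within 50 kb was a RING1B peak of 486 bp from 43295739 to 43296224 in the last exon, 10785 bp from the start site, and all 486 bp of it were coding sequence. The nearest SUZ12 peak to the Zfp42 start site was 1627055 bp away.

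**Figure D2:**
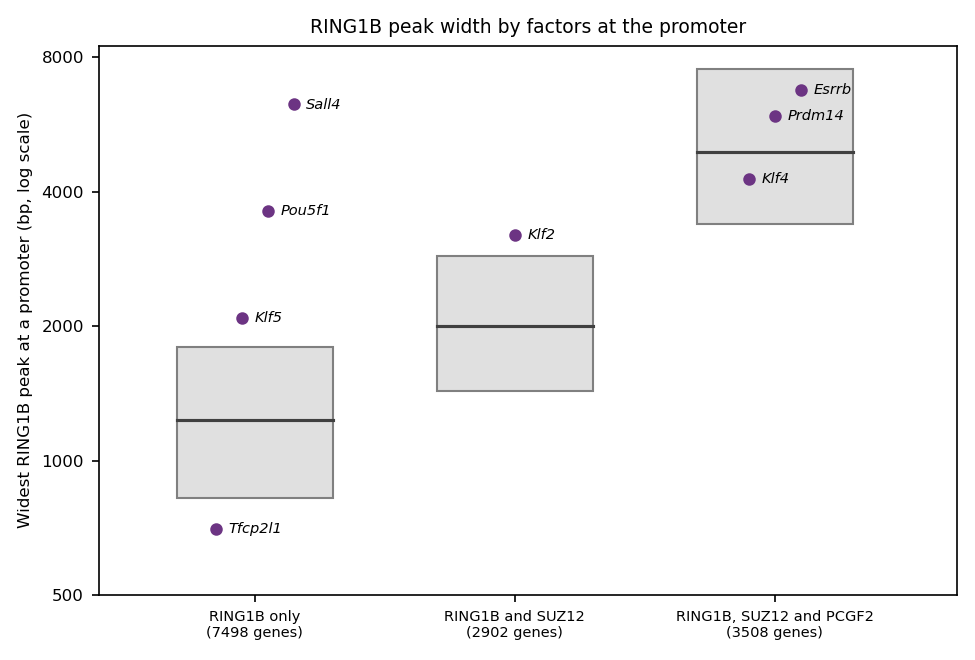
Width of the widest RING1B peak at a promoter (bp, log scale) by the proteins listed at that promoter. Grey boxes give the interquartile range and the line the median over all annotated genes of a class, and points are the pluripotency genes. Sall4 (6275 bp) and Pou5f1 (3631 bp) lie far above the RING1B only median of 1232 bp.

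Over the promoters of the 8 genes there were 10 RING1B peaks with a median width of 3414.5 bp and a range of 575 to 6752 bp. All 12064 RING1B peaks at promoters had a median of 1729 bp and an interquartile range of 1039 to 3148.25 bp. Among genes with all 3 proteins, the median of the widest peak was 4917.5 bp, and Klf4, Prdm14 and Esrrb lay within the interquartile range of 3394.75 to 7551 bp. Klf2 was above the upper quartile of its class (2871 bp).

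In gene bodies, RING1B was listed in 9 of the 10 genes, all but Nanog, against 53.6% of all genes. SUZ12 was listed in 4 (background 24.7%) and PCGF2 in 3 (13.8%), the same genes as at promoters. Most of this came from peaks that start at the promoter. Of the 13 RING1B peaks in gene bodies, 4 lay wholly outside the promoter windows, namely those of Zfp42, the pair in Esrrb and one in Sall4. The Sall4 peak covered 1716 bp from 168754642 to 168756357, all of it coding sequence in at least 1 curated transcript. Its midpoint was in exon 2 of a curated transcript and in an intron of the others. None of the 4 overlapped SUZ12 or PCGF2.

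CpG content varied widely among these promoters, also within a class. CpG observed/expected, the number of CpG dinucleotides relative to that given by the C and G content, was taken over the start site plus or minus 500 bp, at the start site where it was highest. It was highest at Klf4 (0.960), Klf5 (0.923) and Sall4 (0.832), and lowest at Nanog (0.326) and Pou5f1 (0.333). In between lay Klf2 (0.733), Esrrb (0.661), Tfcp2l1 (0.584), Prdm14 (0.504) and Zfp42 (0.487). The median over all genes was 0.538. Klf4, Klf5, Sall4, Klf2 and Esrrb met the limits of 0.6 for CpG observed/expected and 50% for GC, which 43.9% of all genes met. All 5 had RING1B, as did 88.8% of the 11494 genes that met the limits, and Klf2, Klf4 and Esrrb also had SUZ12, as did 45.4% of such genes with RING1B. The other 5 genes did not meet them, and Pou5f1, Tfcp2l1 and Prdm14 among them had RING1B, against 25.3% of such genes.

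Pou5f1 and Nanog had nearly the same CpG observed/expected but not the same number of CpG dinucleotides, 30 against 19 in the 1001 bp around the start site, at a GC content of 60.4% against 48.6%. Pou5f1 was above 6.83% of the genes with RING1B only, whose median was 0.752. Prdm14 was above 12.9% of the genes with all 3 proteins, whose median was 0.733. In the class with none of the proteins the median was 0.224, and Zfp42 was above 84.0% of those genes. At the other end, Klf4 was above 93.0% of the genes with all 3 proteins and Klf5 above 87.9% of those with RING1B only.

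**Figure D3:**
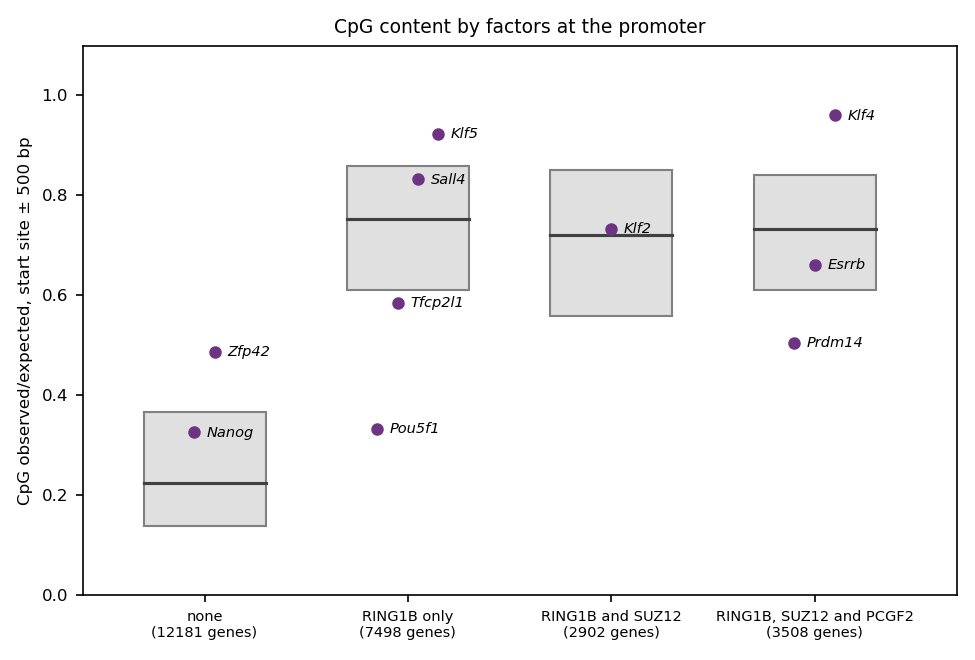
CpG observed/expected within 500 bp of a start site, by the proteins listed at the promoter. Boxes give the interquartile range and the line the median over all annotated genes of a class, and points are the pluripotency genes. Pou5f1 (0.333), Tfcp2l1 (0.584) and Prdm14 (0.504) lie below the boxes of their classes, and Klf4 (0.960), Klf5 (0.923) and Zfp42 (0.487) lie above theirs.

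Peaks were also counted farther out. Within 50 kb of a start site, own promoter and body peaks included, the 10 genes had 1 to 6 RING1B peaks with a median of 3, against a median of 1 and an interquartile range of 0 to 3 over all genes. Sall4 had 6, Pou5f1 and Klf2 had 5 each, Nanog had 4, and Tfcp2l1 and Zfp42 had 1 each, which was their own. Of the 33 RING1B peaks within 50 kb of these genes or in their bodies, 14 were at a promoter or in the body and 19 at neither, so the count partly repeats the promoter calls. Near Pou5f1, a RING1B peak of 2040 bp from 35515763 to 35517802 contained the start sites of Cchcr1 and Tcf19. Farther upstream, RING1B (3539 bp), SUZ12 (3479 bp) and PCGF2 (1984 bp) all covered the start site of H2-Q10, a class I histocompatibility gene. The nearest SUZ12 and PCGF2 peaks to Pou5f1 thus lay at another gene, 34917 and 34933 bp from its upstream start site.

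Around Nanog, RING1B peaks of 3993 bp and 630 bp lay farther upstream and one of 2541 bp from 122742001 to 122744541 contained a start site of the glucose transporter gene Slc2a3. SUZ12 and PCGF2 had 0 peaks within 50 kb of Nanog. At Klf4, a second site with RING1B (1532 bp) and SUZ12 (1056 bp) lay downstream of the gene, from 16145 to 17676 bp from the start site for RING1B, and contained no curated start site. At Sall4, RING1B (2380 bp) and SUZ12 (1433 bp) overlapped at a start site of Atp9a, 23932 and 23635 bp downstream of the Sall4 start site.

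**Figure D4:**
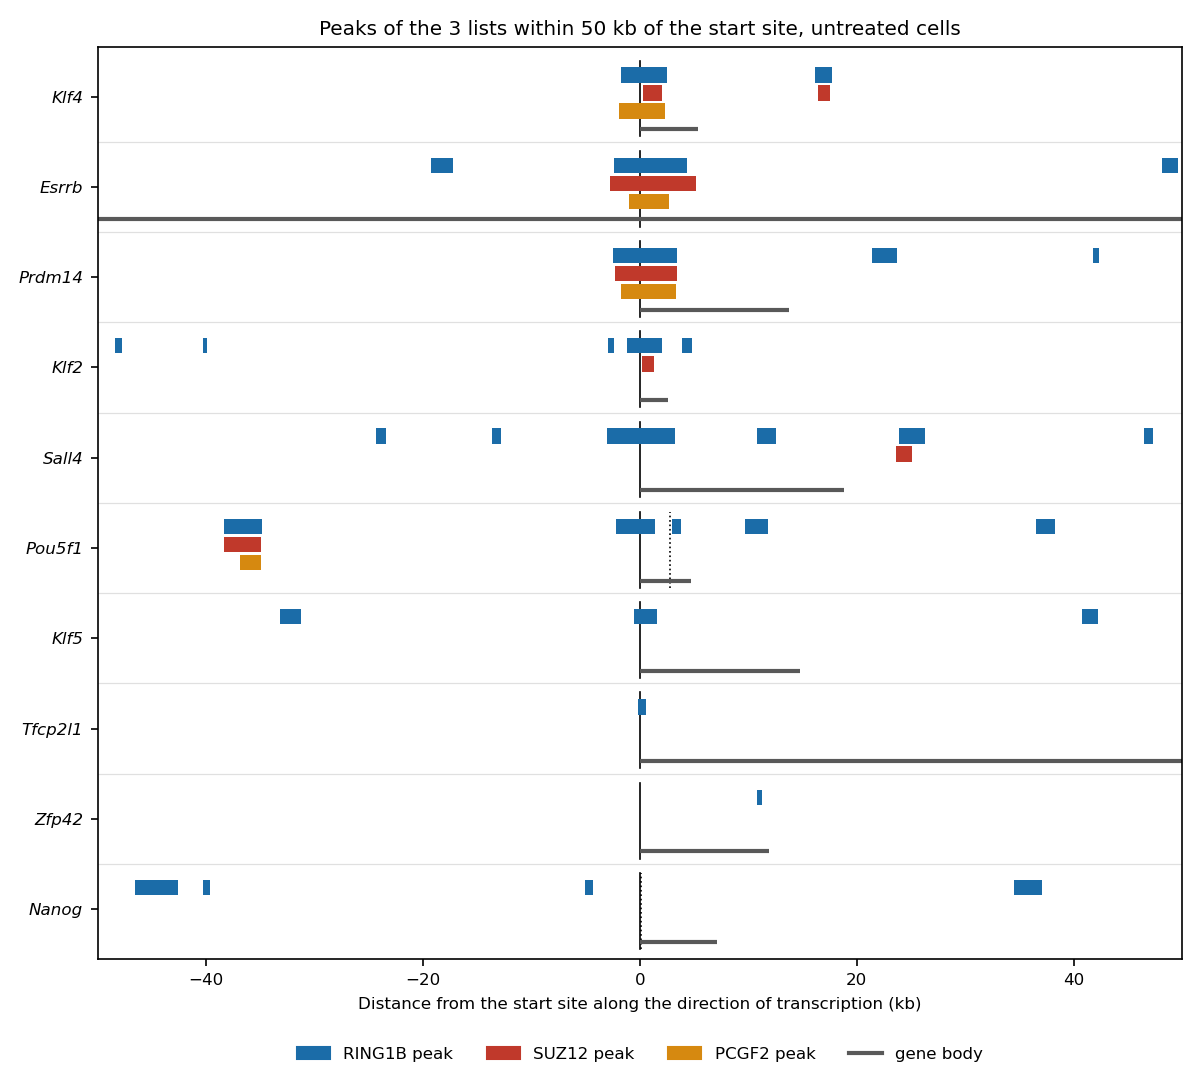
Peaks of the 3 lists within 50 kb of the start site of each gene, in kb in the direction of transcription, drawn as in the closer view. SUZ12 away from the genes is seen near Klf4, Sall4 and Pou5f1, with 0 SUZ12 peaks in the surroundings of Klf5, Tfcp2l1, Zfp42 and Nanog.

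To place the 10 genes among related ones, the same calls were made for 5 other lists. Over all annotated genes, 53.2% had RING1B at a promoter, 24.8% had SUZ12 and 13.5% had PCGF2. The lists are not fully separate, since a POU gene is in both the paralog list and that of formative and primed pluripotency. Of 20 other pluripotency-associated genes, 17 had RING1B at a promoter, 6 had SUZ12 and 3 had PCGF2. Dppa2, Dppa4 and Dppa5a had no RING1B peak at a promoter. The genes with all 3 proteins were Tbx3, Gbx2 and Nr5a2, with RING1B peaks of 33872, 23215 and 13884 bp, wider than any at the 10 genes. Tbx3 and Gbx2 encode regulators that also act in later development. Sox2, the partner of OCT4, had a RING1B peak of 6852 bp and neither of the others, as Sall4 did. All 10 genes of LIF signalling had RING1B, 4 had SUZ12 and 2, the kinase genes Jak1 and Jak2, had PCGF2 as well, with RING1B peaks of 3134 and 4227 bp.

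**Figure D5:**
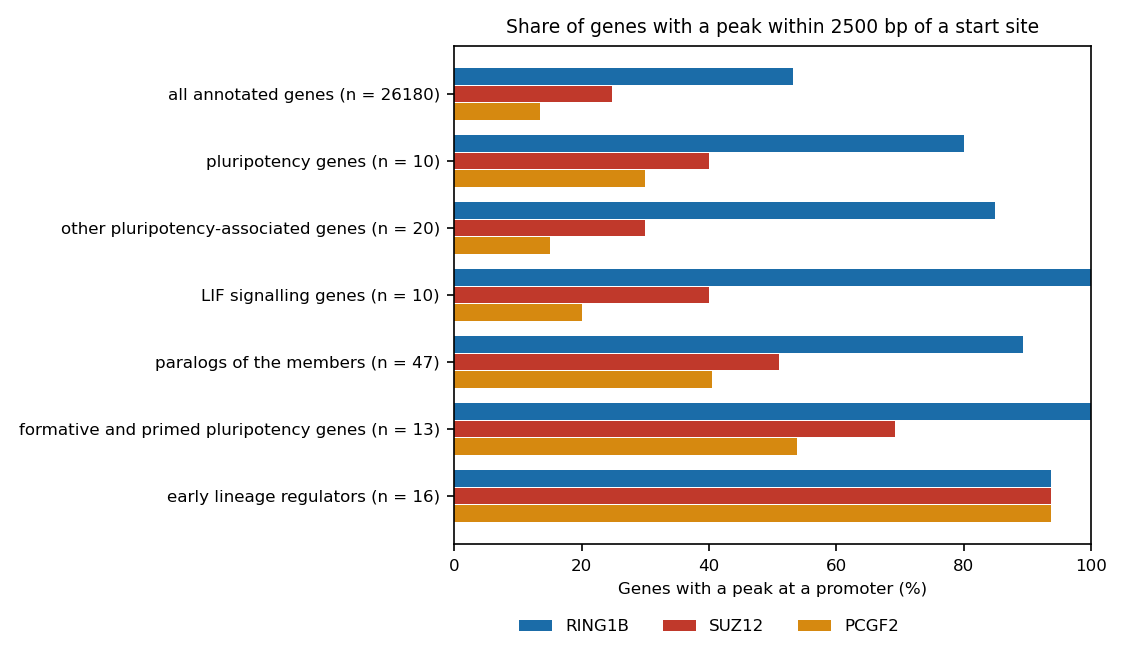
Percentage of genes in each list with a RING1B, SUZ12 or PCGF2 peak within 2500 bp of a start site. The pluripotency genes stand at 80%, 40% and 30%, and the early lineage regulators at 93.8% for each of the proteins.

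Of 13 genes of formative and primed pluripotency, the states that follow the naive one, 13 had RING1B, 9 had SUZ12 and 7 had PCGF2. The widest RING1B peaks among those with all 3 were at Zic2 (31897 bp), Otx2 (16731 bp), Lef1 (15623 bp) and Sox3 (10552 bp). Of 16 early lineage regulators, 15 had all 3 proteins, and the widest RING1B peaks were at Pax6 (36477 bp), Sox1 (23207 bp), Cdx2 (23026 bp) and Foxa2 (22819 bp). Tbx6 had no RING1B peak at a promoter, but with 5000 bp on either side all 16 had one. The median of the widest RING1B peak was 17277 bp in that list and 3953.5 bp over the 8 genes with RING1B here.

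The paralogs of the 10 genes gave a comparison within each protein family. Of 47 paralogs, 42 had RING1B at a promoter, 24 had SUZ12 and 19 had PCGF2. Klf genes without RING1B at a promoter were Klf6, Klf8, Klf12 and Klf17. The widest RING1B peaks with all 3 proteins were at Pou3f3 (34017 bp), Prdm8 (28461 bp), Pou3f2 (27797 bp) and Sall3 (21063 bp). Of 11 POU genes other than Pou5f1, 8 had all 3 proteins. Sall1, Sall2 and Sall3 all had SUZ12 and PCGF2, which Sall4 lacked, with RING1B peaks of 8571, 4659 and 21063 bp. Esrra had RING1B and SUZ12 and Esrrg had all 3, with RING1B peaks of 9305 and 8963 bp. Tfcp2 and Ubp1 had RING1B only, as did their relative Tfcp2l1, and their peaks of 2287 and 2347 bp were wider than its 702 bp. Yy1 and Yy2, from whose family Zfp42 derives, had RING1B only, with peaks of 940 and 706 bp, where Zfp42 had no promoter peak. Of 14 other Klf genes, 10 had RING1B, 2 had SUZ12 and 1 all 3 proteins, while of Klf2, Klf4 and Klf5, 2 had SUZ12 and 1 all 3. Of 13 other Prdm genes, 13 had RING1B, 9 had SUZ12 and 6 had all 3, as Prdm14 did.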

How the data were processed

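Per the labels and the study's methods, reads were mapped by Bowtie 2 to a joint mm10 and hg19 genome, Sambamba took out duplicates, and MACS2 found broad peaks relative to Input. RING1B and SUZ12 peaks had to be found in both untreated lines, called on merged replicates, and RING1B peaks without a significant loss on tamoxifen (800 nM for 72 hours) in PRC1CKO cells were removed. PCGF2 peaks had to be found in every replicate of untreated PRC1CPM cells. Blacklisted regions were discarded. The deposited values are peak positions in bp with no score, and they do not give depth.

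Positions were read from base 1 and compared with GRCm38.p6. No peak (0) passed the end of its chromosome, and 5 peaks that lay off the reference chromosomes were not used. Start sites and gene bodies came from curated RefSeq transcripts. A peak was called where it shared at least 1 bp with a window. No test between samples was possible, since the lists pool replicates, and none was made over the genes. Percentiles are the percentage of genes or peaks with a smaller value. The 10 genes, the 5 other lists, the motifs and the alternatives were chosen with earlier results of these data known. By rule, all 10 genes are named, and of each other list the genes with the widest RING1B peak among those with all 3 proteins (up to 4), the genes without RING1B (up to 8) and paralog families of up to 3. Sox2 was named after its value was seen, and a paralog within the rule is not reported here. The overlap code was tested on simulated intervals. Python 3.11.15, NumPy 2.4.6, pandas 2.3.3, pysam 0.24.0 and matplotlib 3.10.9 were used.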

Additional observations from a re-analysis of the deposited data

How the results depend on the processing

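Of 71 counts and shares under alternative settings, 64 stayed within 1.5 times the value given. When a peak had to contain the start site, 2 genes in place of 4 had SUZ12, and 2 had RING1B with SUZ12. When gene bodies were cut to the part outside promoter windows, RING1B was listed in 5 genes and SUZ12 in 2, and the share of all genes fell to 15.4% for RING1B, 11% for SUZ12 and 4.85% for PCGF2, since bases within 2500 bp of a start site were left out and a promoter peak counted only where it ran past them, as RING1B peaks of Klf4, Esrrb, Prdm14 and Sall4 did. The number of genes with RING1B at a promoter ran from 7, with peaks of at least 1 kb (Tfcp2l1 lost) or the start site of the longest transcript (Esrrb lost), to 9 with 5000 bp on either side (Nanog added). The median RING1B width ran from 2643.5 to 3953.5 bp and the median CpG observed/expected from 0.517 to 0.658, against 0.623. For the 5 other lists, 45 counts under 3 alternatives chosen after seeing the data all stayed within 1.5 times. No paired analysis was possible because each list is a single set pooled over samples, which also left no replicate to omit. The lists give no depth, so how far depth limits the absence of a peak is unknown.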
